A study of Mus musculus with 3 samples.

Results

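The genes described here make up the entry route of the secretory pathway in pancreatic islet cells: the factors that bring a nascent protein to the endoplasmic reticulum (ER), the translocon that threads it through the membrane, the signal peptidase that trims it, and the coat proteins and receptors that carry cargo between ER and Golgi. They were chosen by gene name, as names starting with Sec or Srp and a digit, Ssr, Spcs, Srpr, Tmed, Copa, Copb, Cope, Copg, Copz, Kdelr or Sar1, without the Cops genes. Across the 3 cell types, 34 of 8237 listed genes matched, of which 33 of 8193 were in the beta-cell table, 6 of 186 in the alpha-cell table and 3 of 231 in the delta-cell table. The mouse annotation holds 71 protein-coding names of this pattern, and the other 37, such as Copa, Sec31a, Sec63, Ssr1 and Tmed10, were not analysed here. The match to the pattern includes Ssrp1, a subunit of a chromatin factor, and Sec14l4, a Sec14-like lipid-binding protein. Neither belongs to a transport step, and they are kept apart below.

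Islets came from 2 mice labelled IRE1αβ-/-, called knockout here, and 1 mouse labelled IRE1αfl/fl, called control. A knockout cell below is any cell from a knockout mouse, and loss of IRE1α in that cell is not implied. Deletion in alpha or delta cells was not checked. The β of the label is not read here as loss of a second gene. All 3 mice were NOD/ShiLtJ, 5 weeks old, and had been injected with tamoxifen in corn oil, at 10 mg per ml into the peritoneum over 5 days, to switch on Cre recombinase, so the control shares the strain, the age and the drug. The promoter that drives the Cre is not given in the sources used here. Hand-picked islets were cultured overnight and dissociated, and single cells were profiled with 10X Genomics droplets that count unique molecular identifiers (UMIs), each standing for 1 captured transcript. Every listed gene has an adjusted p of at most 0.0103 in the authors' deposited tables, so presence in a table is itself a selection.

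In a secretory cell, the signal recognition particle (SRP) binds the signal sequence of a protein while it is being made and docks at its receptor on the ER. The chain then enters the Sec61 channel, helped by Sec62, Sec63 and the translocon-associated TRAP complex of Ssr proteins, and signal peptidase removes the signal sequence. Folded cargo leaves in COPII vesicles, and COPI vesicles bring escaped ER proteins back with the help of KDEL receptors and p24 (Tmed) proteins. Beta cells are known for the load that proinsulin puts on this route. IRE1α is an ER stress sensor whose RNase splices Xbp1 mRNA, and spliced XBP1 is a known activator of many genes of ER import and export.

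Values are given as mean UMIs per cell without any scaling for depth. For beta cells there is 1 column over the 815 cells of both knockout mice together and 1 over the 829 control cells. In alpha cells, the knockout columns hold 304 and 177 cells and the control column 142. For delta cells these numbers are 138 and 78 in the knockout columns and 101 in the control column. A ratio is UMIs per knockout cell over UMIs per control cell, and brackets give its exact 95% interval, which covers counting error only. The spread between control mice is unknown, since there was 1, and the call rule is a ratio of 1.5 or more in either direction. No test was made in beta cells. Fewer transcripts of a gene per cell and fewer transcripts captured per cell cannot be told apart from these means alone. The targeted gene Ern1 was not lower, with 0.742 UMIs per knockout beta cell and 0.509 per control beta cell. Which exons were removed is not given in the sources used here, so Ern1 checks nothing. Xbp1 had 5.25 UMIs per knockout beta cell and 3.51 per control beta cell.

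Islet cell markers differed between the beta-cell columns. All 6 beta-cell markers (Ins1, Ins2, Iapp, Mafa, Slc2a2 and Ucn3) were lower in knockout beta cells, at a summed 13364 UMIs per knockout cell and 22059 per control cell. The 3 of 5 alpha-cell markers that were listed summed to 113 UMIs per knockout beta cell and 48.8 per control beta cell, and the 3 delta-cell markers to 64.6 UMIs per knockout and 39.6 per control beta cell. The pancreatic polypeptide cell genes Ppy and Pyy summed to 107 UMIs per knockout beta cell and 21.7 per control beta cell. Red-cell globin genes, 3 of 4 listed, summed to 22.6 UMIs per knockout beta cell and 0.0639 per control beta cell. Of 4 plasma-cell markers, a cell type rich in secretory machinery, only Sdc1 was listed, with 0.207 UMIs per knockout beta cell and 0.0362 per control beta cell. Of 4 immune markers, Cd68 had 0.0577 UMIs in knockout and 0.409 in control beta cells, and Cd74 had 0.345 in knockout and 0.176 in control. The acinar gene Reg3b had 0.114 in knockout and 0 in control, and the endothelial gene Pecam1 0.362 in knockout and 0.176 in control. The part of other cells or free RNA in the results below was not tested. None of the 5 alpha-cell markers was among the listed alpha-cell genes, and Rbp4 was the 1 delta-cell marker in the delta-cell table, so these cell types are the authors' assignment.

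In beta cells, members of the translocon and of signal peptidase were lower in the knockout, while most COPII genes and Tmed genes were level or slightly higher. Of the 33 members, 15 had a ratio under 1 and 18 a ratio over 1, where 5.04% of all 8193 listed genes were under 1 and 95% over 1. At a fold of at least 1.5, 11 members were lower and 1 was higher, against 2.47% and 45.7% of all listed genes in these directions. After scaling each column to its total over the listed genes, 0 members were lower and 12 were higher by that fold, where 1.37% and 83.2% of listed genes were. Ins2, Ins1 and Iapp held 13373, 6900 and 1781 of the 31552 listed UMIs per control beta cell, most of that total. With these genes left out of the total, 13 members were lower and 1 higher by that fold. The share of all listed genes for this count was not computed. Under every scaling tried, 13 members had a ratio under 1, where 2.80% of listed genes did after scaling to the listed total. Without scaling, 0 members were lower at a fold of at least 2, where 1.21% of listed genes were. With the median of all listed genes set to a ratio of 1, called centring here, 15 were lower by 1.5-fold, where 4.19% were. The members' median log2 ratio was 0.11, beside 0.54 for all listed genes, and 31 of the 33 lay under that median. Listed genes from 0.3 UMIs per control cell up also had medians under 0.54, as given by level below. Summed, the 33 members gave 89.4 UMIs per knockout beta cell and 128 per control beta cell. That is 0.361% of the listed UMIs in knockout and 0.404% in control cells. Both totals include Ins1, Ins2 and Iapp, which were lower in the knockout. The members' shares of the totals without these genes were not computed.

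**Figure D1:**
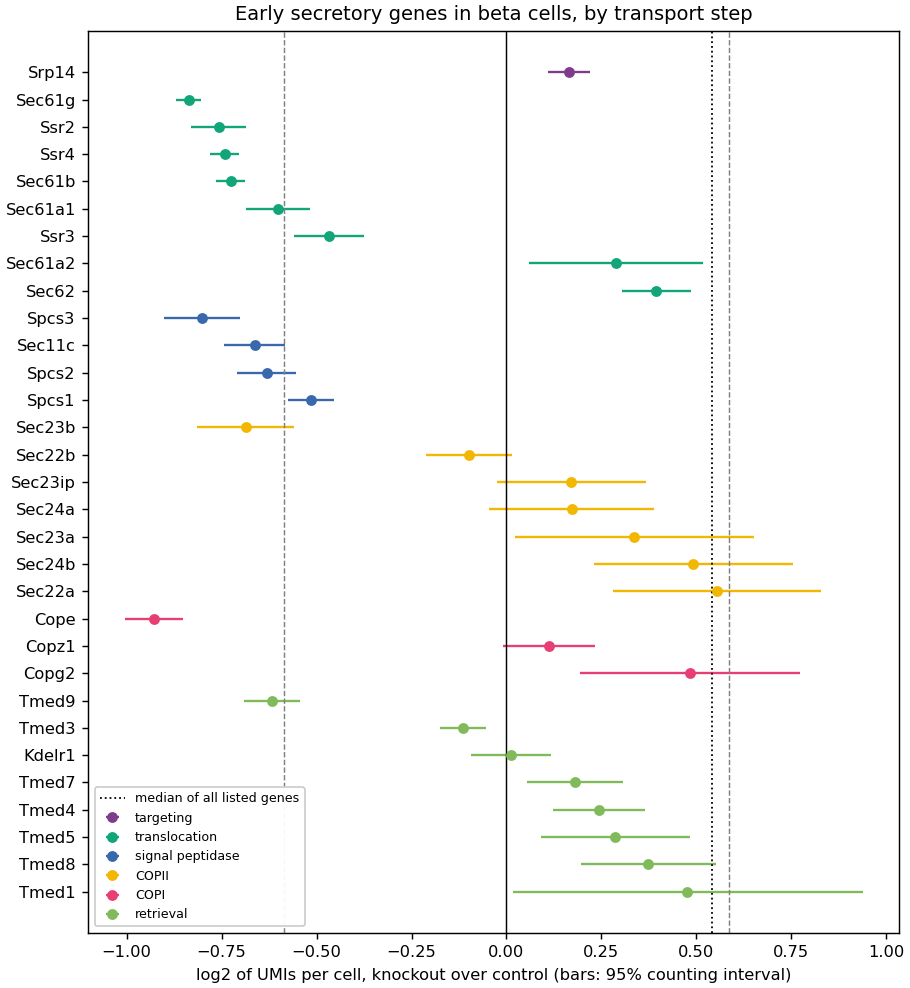
The log2 ratio of UMIs per cell, knockout over control, is plotted for the 31 members of a transport step in beta cells, with points coloured by step and bars for the 95% counting interval. Dashed lines mark a fold of 1.5 in either direction and the dotted line the median of all listed genes at 0.54. Translocation and signal peptidase genes sit on the left except Sec61a2 and Sec62, and Cope has the lowest ratio.

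The listed genes as a whole left a stretch of ratios empty, and the lower members lay on its lower side. Among the 1438 listed genes with at least 1 UMI per control beta cell, no gene had a ratio between 0.727 and 0.848. The ratio of the listed totals, 0.786, lies inside this stretch, so a gene whose share of the listed UMIs was the same in both columns would fall there. Such a gene is not among those the authors listed at this level, so the stretch is a feature of the whole list and not of the members. Of the 21 members at that level, 13 lay under the stretch, against 6.88% of these listed genes, and their ratios ran from 0.526 (Cope) to 0.723 (Ssr3). By its position, a gene under the stretch also has a ratio under 1 after scaling to the listed total. Sec22b and Tmed3, the other members under 1 before scaling, were above 1 after scaling to the listed total, where their log2 ratios were 0.25 and 0.23. The stretch and its limits were found after the values were seen.

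Direction went with the control level of the gene. None of the 12 members under 1 UMI per control beta cell was lower, and 11 of the 12 members from 3 UMIs up were. The exception was Srp14. Among all listed genes the share with a ratio under 1 also differed by level: 1.66% under 0.3 UMIs per control cell, 2.75% from 0.3 to 1, 13.2% from 1 to 3, 31.3% from 3 to 10 and 28.9% from 10 up. In the same bins 0 of 6, 0 of 6, 4 of 9, 8 of 9 and 3 of 3 members were lower. Median log2 ratios of all listed genes in these bins were 0.79, 0.41, 0.26, 0.14 and 0.22. Those of the members were 0.49, 0.29, 0.01, -0.62 and -0.74.

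**Figure D2:**
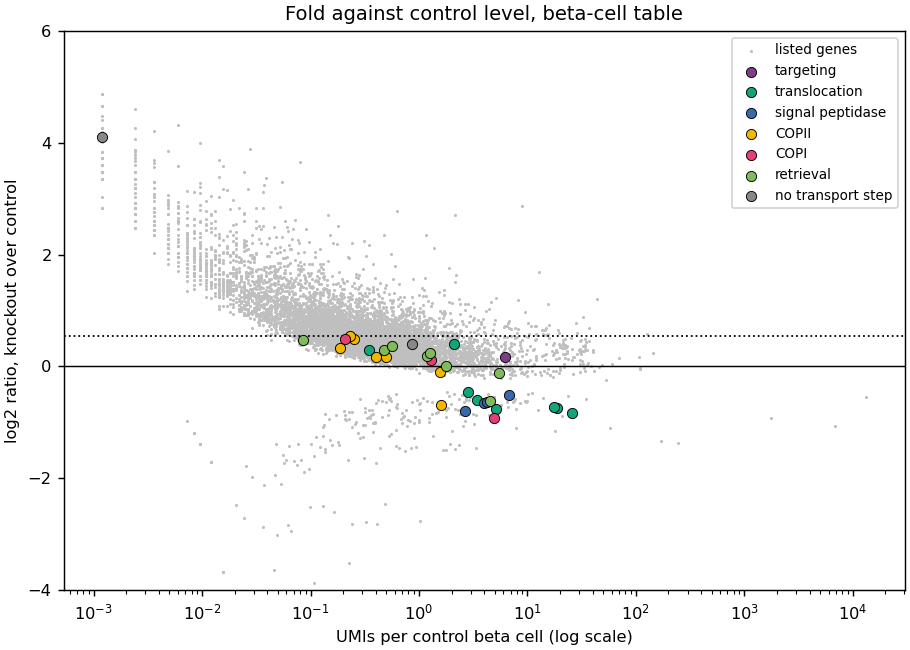
Each grey point is a listed beta-cell gene with at least 1 control UMI, placed by its UMIs per control cell (log scale) and its log2 ratio of knockout over control, and members are coloured by step. The solid line marks a ratio of 1 and the dotted line the median of all listed genes, and 4 genes lie outside the vertical axis. Most members at 3 or more control UMIs sit in the sparse cloud under the empty band, and those under 1 control UMI lie in the upper cloud.

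Promoters of 5 of the lower members are printed because these genes were low together and because XBP1 is known to act on such genes through the ER stress response element, a CCAAT box followed by CCACG. Cope and Sec61g had the lowest ratios of the coat and of the translocon, and Ssr3, Spcs2 and Tmed9 hold the CCACG box. Each line gives the 250 bases before the annotated start on the gene's own strand, 5′ to 3′, from RefSeq on GRCm38.p6. The RefSeq starts of Cope, Ssr3, Spcs2 and Tmed9 lie inside the longer spans that GENCODE gives these genes, so their windows overlap those spans in whole or in part, and only the Sec61g window lies outside its gene. Capitals mark CCACG, written CGTGG where it lies on the opposite strand.
Cope (chr8:70302517-70302766, plus strand): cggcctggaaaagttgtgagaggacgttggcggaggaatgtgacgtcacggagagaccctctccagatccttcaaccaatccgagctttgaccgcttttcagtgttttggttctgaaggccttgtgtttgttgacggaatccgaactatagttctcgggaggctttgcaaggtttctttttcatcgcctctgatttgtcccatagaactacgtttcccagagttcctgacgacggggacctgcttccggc
Sec61g (chr11:16508485-16508734, minus strand): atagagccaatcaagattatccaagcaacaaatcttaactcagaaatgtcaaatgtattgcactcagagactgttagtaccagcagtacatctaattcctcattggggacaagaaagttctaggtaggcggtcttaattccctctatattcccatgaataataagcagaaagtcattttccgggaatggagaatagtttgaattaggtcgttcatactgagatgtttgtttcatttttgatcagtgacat
Ssr3 (chr3:65392554-65392803, minus strand): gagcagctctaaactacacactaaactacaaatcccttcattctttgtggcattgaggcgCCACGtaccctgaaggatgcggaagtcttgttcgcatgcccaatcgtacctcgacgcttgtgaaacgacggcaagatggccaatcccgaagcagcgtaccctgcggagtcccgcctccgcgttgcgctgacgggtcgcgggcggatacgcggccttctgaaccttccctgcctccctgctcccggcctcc
Spcs2 (chr7:99858884-99859133, minus strand): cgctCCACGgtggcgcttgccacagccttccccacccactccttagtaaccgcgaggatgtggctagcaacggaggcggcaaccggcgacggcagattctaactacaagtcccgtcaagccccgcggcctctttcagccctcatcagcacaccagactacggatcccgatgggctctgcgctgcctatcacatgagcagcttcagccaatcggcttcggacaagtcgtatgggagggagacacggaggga
Tmed9 (chr13:55592885-55593134, plus strand): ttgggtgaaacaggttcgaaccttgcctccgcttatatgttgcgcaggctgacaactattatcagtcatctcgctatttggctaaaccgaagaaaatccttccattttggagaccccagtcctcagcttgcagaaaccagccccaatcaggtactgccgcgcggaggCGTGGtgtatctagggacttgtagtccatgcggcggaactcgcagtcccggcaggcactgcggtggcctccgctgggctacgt
The CCACG letters were found 190 bases before the start of Ssr3, 246 bases before that of Spcs2 and, on the opposite strand, 83 bases before that of Tmed9. Of the 32 members of a transport step, 27 had a promoter in the table, and Sec61a1, Ssr2, Sec11c, Spcs3 and Tmed7 did not. Searched on both strands, CCACG was present in 13 of the 27, beside 31.0% of the 27025 genes with a promoter. By direction in beta cells it was in 5 of 11 members with a ratio under 1 and in 7 of 15 with a ratio over 1. Of the 7 members with a promoter that were lower by a fold of at least 1.5, 2 held CCACG and 5 held CCAAT. The CCAAT letters were in 7 of the 11 lower members and 5 of the 15 higher ones, beside 37.5% of all genes. The full element, CCAAT and CCACG with 9 bases between, and the sequence TGACGTGG were in 0 of the 27, beside 0.130% and 0.603% of all genes. These letters are a description of the windows and say nothing of binding.

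For targeting, 1 member was listed in beta cells. Srp14, a small SRP subunit that acts in slowing translation while the ribosome docks, had 7.01 UMIs per knockout beta cell and 6.25 per control beta cell, a ratio of 1.12 [1.08 to 1.16]. It was the only member from 3 control UMIs up that was not lower. Srp54a, Srp68, Srp72 and both receptor genes were not analysed here.

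Most translocation genes were lower, with Sec61a2 and Sec62 as the exceptions. Of 8 listed genes, 6 were lower, 5 of them by a fold of at least 1.5, where 5.04% and 2.47% of all listed genes were, and the median log2 ratio was -0.66. With columns scaled to the listed total, 0 of these 8 were lower by that fold and the median was -0.32. With Ins1, Ins2 and Iapp left out of that total, the median was -0.93. Together the 8 genes gave 46.9 UMIs per knockout beta cell and 76.2 per control beta cell, a ratio of 0.616 [0.608 to 0.624]. Sec61g, the gamma subunit of the channel (mm10 chromosome 11, 16500530 to 16508484, minus strand), had 14.4 UMIs per knockout beta cell and 25.7 per control beta cell, a ratio of 0.560 [0.547 to 0.573]. Sec61b, the beta subunit (chromosome 4, 47474658 to 47483242), had 10.7 UMIs in knockout and 17.8 in control beta cells, a ratio of 0.604 [0.589 to 0.621]. Sec61a1, which encodes the pore-forming alpha subunit, had 2.26 UMIs in knockout and 3.43 in control beta cells. Its ratio of 0.659 [0.621 to 0.699] put all 3 parts of the channel on the same side. The TRAP genes were lower as well: Ssr2 at 0.591 [0.563 to 0.621], Ssr4 at 0.598 [0.583 to 0.614] and Ssr3 at 0.723 [0.679 to 0.771]. Ssr4 had 11.3 UMIs per knockout beta cell and 18.8 per control beta cell, and Ssr2 had 3.06 in knockout and 5.17 in control beta cells.

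Sec61a2 and Sec62 went the other way. Sec61a2, a second alpha-subunit gene, had 0.427 UMIs per knockout beta cell and 0.350 per control beta cell, a ratio of 1.22 [1.04 to 1.43]. Sec62, which helps short secretory proteins into the channel and also acts as a receptor in ER turnover, had 2.76 UMIs in knockout and 2.10 in control beta cells, a ratio of 1.31 [1.23 to 1.40]. Both lay under the median of all listed genes and turned negative after centring, at log2 ratios of -0.25 and -0.15. Set against the channel itself, which needs no scaling, there were 10.1 Sec62 UMIs per 100 UMIs of Sec61a1, Sec61b and Sec61g in knockout beta cells and 4.48 in control beta cells.

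All 4 listed genes of signal peptidase were lower, where 5.04% of all listed genes were, at a median log2 ratio of -0.65. Scaled to the listed total, 0 of these 4 were lower by a fold of at least 1.5 and the median was -0.30. With Ins1, Ins2 and Iapp left out of that total, the median was -0.91. Spcs3, an accessory subunit, had 1.54 UMIs per knockout beta cell and 2.68 per control beta cell, a ratio of 0.574 [0.535 to 0.615]. Sec11c, which encodes a catalytic subunit, had 2.52 UMIs in knockout and 3.98 in control beta cells, a ratio of 0.632 [0.598 to 0.668]. Spcs2 had 2.72 UMIs in knockout and 4.21 in control beta cells, a ratio of 0.646 [0.612 to 0.681]. Spcs1, just outside the fold of 1.5, had 4.75 UMIs in knockout and 6.78 in control beta cells, a ratio of 0.700 [0.672 to 0.729]. Their sum was 11.5 UMIs per knockout beta cell and 17.7 per control beta cell, a ratio of 0.653 [0.636 to 0.670]. The other catalytic subunit gene, Sec11a, was not analysed here.

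Of 7 listed COPII genes, 5 had a ratio over 1 and 2 a ratio under 1, where 95% of all listed genes were over 1. Their median log2 ratio was 0.17, and 6 of the 7 lay under the median of all listed genes. Sec23b, an inner-coat gene, was the 1 COPII gene lower by a fold of at least 1.5, with 0.989 UMIs per knockout beta cell and 1.59 per control beta cell, a ratio of 0.622 [0.569 to 0.679]. Its paralogue Sec23a had 0.234 UMIs in knockout and 0.186 in control beta cells, a ratio of 1.26 [1.01 to 1.57]. The cargo adaptor genes Sec24a and Sec24b were at 1.13 [0.969 to 1.31] and 1.40 [1.17 to 1.69], and Sec23ip, which encodes a Sec23-binding protein, at 1.13 [0.983 to 1.29]. Sec24b had 0.356 UMIs in knockout and 0.253 in control beta cells. The vesicle SNARE gene Sec22b had 1.47 UMIs in knockout and 1.58 in control beta cells, a ratio of 0.934 [0.863 to 1.01]. Its relative Sec22a had 0.336 UMIs in knockout and 0.229 in control beta cells, a ratio of 1.47 [1.21 to 1.77]. Sec22a was the 1 member of a step that lay above the median of all listed genes.

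In 3 pairs of paralogues the balance differed between the columns, a measure that does not depend on scaling. Sec61a2 made up 15.9% [14.4% to 17.5%] of the UMIs of Sec61a1 and Sec61a2 in knockout beta cells and 9.25% [8.26% to 10.3%] in control beta cells. The Sec23a share of Sec23a and Sec23b was 19.2% [16.8% to 21.7%] in knockout and 10.5% [8.94% to 12.1%] in control beta cells. For Sec22a of Sec22a and Sec22b the shares were 18.6% [16.6% to 20.7%] in knockout and 12.7% [11.04% to 14.5%] in control beta cells. These are exact (Clopper-Pearson) intervals for 1 column per genotype, and they cover counting error only, not the spread between mice. In each pair the scarcer paralogue took a larger share in the knockout column than in the control column. Among all listed genes too, ratios under 1 were rarer at low control levels. They made up 1.66% under 0.3 UMIs and 2.75% from 0.3 to 1, beside 13.2% from 1 to 3. The share of other pairs of listed genes at such levels that differ in this way was not computed. These pairs were picked after their values were seen.

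**Figure D3:**
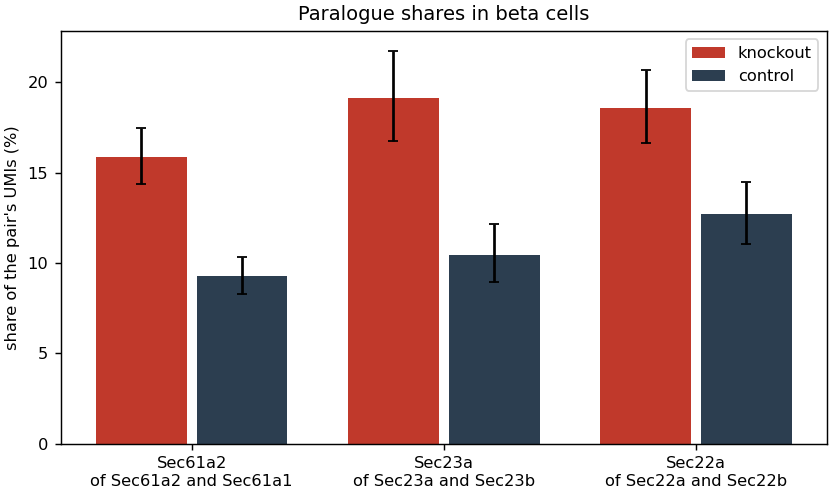
Bars give the share of UMIs, in percent, that the first-named paralogue takes of its pair in knockout and control beta cells, with 95% exact counting intervals. The share is larger in the knockout column in each of the 3 pairs, from 15.9% against 9.25% for Sec61a2 to 19.2% against 10.5% for Sec23a.

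COPI held the lowest ratio of all members beside a pair that was not lower. Cope, which encodes the epsilon subunit of the coat (chromosome 8, 70302518 to 70312993, plus strand), had 2.61 UMIs per knockout beta cell and 4.96 per control beta cell, a ratio of 0.526 [0.499 to 0.554]. Copz1, for a zeta subunit, had 1.41 UMIs in knockout and 1.31 in control beta cells, a ratio of 1.08 [0.994 to 1.18]. Copg2, for a gamma subunit, had 0.293 UMIs in knockout and 0.210 in control beta cells, a ratio of 1.40 [1.14 to 1.71]. Copg2 overlaps the gene Mest on the opposite strand, and whether counting used strand is not given in the sources used here. The delta subunit gene Arcn1, which the name pattern does not take, was at 0.961 [0.884 to 1.04].

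Among the retrieval and cargo-receptor genes, Tmed9 stood apart. Tmed9, a p24 protein that cycles between ER and Golgi, had 2.97 UMIs per knockout beta cell and 4.55 per control beta cell, a ratio of 0.652 [0.619 to 0.686]. Tmed3 had 5.03 UMIs in knockout and 5.45 in control beta cells, a ratio of 0.924 [0.885 to 0.964]. The other 5 Tmed genes, Tmed1, Tmed4, Tmed5, Tmed7 and Tmed8, had ratios from 1.13 to 1.39. Highest were Tmed1, with 0.119 UMIs in knockout and 0.0856 in control beta cells, and Tmed8, with 0.725 in knockout and 0.560 in control beta cells. Kdelr1, a receptor that returns KDEL-tagged chaperones to the ER, had 1.78 UMIs in knockout and 1.77 in control beta cells, a ratio of 1.01 [0.937 to 1.08]. For Kdelr1 and 4 other members (Sec22b, Sec23ip, Sec24a and Copz1) the interval spans 1, although the authors' deposited table lists Kdelr1 at an adjusted p of 1.47e-05. The test behind that value is not given in the sources used here.

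The steps made up different shares of the 31 members' UMIs in the columns. Translocation took 53.2% [52.8% to 53.6%] in knockout and 60.2% [59.9% to 60.5%] in control beta cells. The retrieval genes took 15.9% [15.7% to 16.2%] in knockout and 12.1% [11.9% to 12.3%] in control cells, and Srp14 alone 7.94% [7.74% to 8.14%] in knockout and 4.94% [4.81% to 5.07%] in control cells. Signal peptidase (13.1% in knockout, 13.9% in control) and COPI (4.89% in knockout, 5.11% in control) lay closer together.

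Outside the transport steps, Ssrp1 was at a ratio of 1.32 [1.20 to 1.46]. Sec14l4, the 1 member higher by a fold of at least 1.5, rested on 17 UMIs in knockout and 1 UMI in control beta cells, a ratio of 17.3 [2.71 to 723]. Of the 34 members, 22 overlap another annotated gene, 18 of them one on the opposite strand. Of the 11 members lower by a fold of at least 1.5, 6 overlap none (Sec61g, Ssr4, Sec61b, Sec23b, Cope and Tmed9).

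The neighbouring genes of the pathway, given here from 4 lists, differed by list. Oligosaccharyltransferase, which adds sugar chains to proteins at the translocon, was lower in 6 of 8 listed genes, 5 by a fold of at least 1.5 where 2.47% of all listed genes were, at a median log2 ratio of -0.61. Magt1 was at 0.579 [0.532 to 0.631] and Dad1 at 0.585 [0.566 to 0.604]. Tusc3, whose product takes the place of Magt1 in the complex, was at 1.14 [1.05 to 1.24], and Stt3b, a catalytic subunit gene, at 1.24 [1.10 to 1.39]. Other insertion and translocon factors had a ratio over 1 in 19 of 22 cases, where 95% of all listed genes did. By that fold 3 were higher, where 45.7% of all listed genes were, and the median was 0.28. The co-chaperone gene Dnajb9 was at 0.595 [0.565 to 0.627] and the chaperone gene Hyou1 at 0.669 [0.623 to 0.718]. At the other end were Tram2 at 2.66 [1.37 to 5.49] and Wrb, of the pathway for tail-anchored proteins, at 1.74 [1.28 to 2.38].

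Other ER exit factors had a ratio over 1 in 9 of 15 cases (median log2 ratio 0.17) and other COPI and Golgi-to-ER factors in 9 of 12 (median 0.20), beside 95% of all listed genes and their median of 0.54. Lman1, a cargo receptor for glycoproteins, was at 0.557 [0.517 to 0.600], and Bet1, a SNARE of ER-to-Golgi transport, at 0.611 [0.558 to 0.669]. The highest of that list were Tmem115 at 1.42 [1.21 to 1.68] and the SNARE gene Gosr1 at 1.31 [1.12 to 1.52]. Among the COPI neighbours, Nbas was at 0.643 [0.549 to 0.752] and Gorasp2 at 0.946 [0.879 to 1.02], against Arfgap2 at 1.37 [1.23 to 1.53] and the small GTPase gene Arf3 at 1.31 [1.23 to 1.39]. In these lists too, all but the 3 highest of 57 listed genes lay under the median of all listed genes. Listed genes from 0.3 UMIs per control beta cell up had medians under that value as well.

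**Figure D4:**
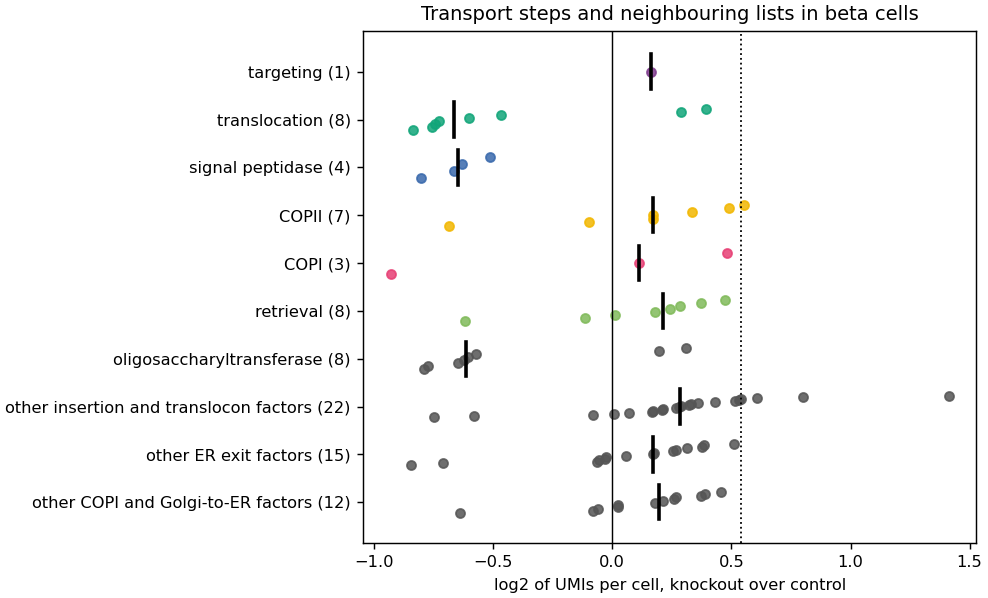
Each point is a listed beta-cell gene, placed by its log2 ratio of UMIs per cell, knockout over control. Rows are the 6 transport steps and the 4 neighbouring lists with their numbers of listed genes, and black bars mark row medians. The dotted line is the median of all listed genes at 0.54. Translocation, signal peptidase and oligosaccharyltransferase have medians from -0.66 to -0.61, and the other rows have medians from 0.11 to 0.28.

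In alpha cells, 6 members were listed, and each was lower in both knockout columns. At a fold of at least 1.5 in the mean of the knockout columns, 4 of the 6 were lower and 0 higher, where 30.1% and 10.8% of the 186 listed genes were. Both knockout columns were under control for 51.1% of listed alpha-cell genes, and the mean was under control for 57% and over it for 43%. With the fold required in each knockout column, 2 members were lower, where 20.4% of listed genes were. At a fold of at least 2 there were 0 members lower, where 11.8% were, and after centring there were 0, where 14% were. The median log2 ratio was -0.60, beside -0.29 for all listed alpha-cell genes. Summed, the 6 members gave 33.8 and 33.5 UMIs per cell in the knockout columns and 47.1 in control alpha cells. The beta-cell markers Ins1, Ins2 and Iapp summed to 251 and 304 UMIs per knockout alpha cell, against 434 per control alpha cell. The delta-cell markers Sst and Rbp4 summed to 19.5 and 51.9 UMIs per knockout alpha cell, against 52.5 per control alpha cell. Ppy, a pancreatic polypeptide cell marker, had 341 and 323 UMIs per knockout alpha cell, against 427 per control alpha cell. The part of these markers in the result was not tested.

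Ssr2, which encodes the beta subunit of TRAP, had 4.65 and 4.50 UMIs per knockout alpha cell, against 7.39 per control alpha cell. The knockout columns lay close together and under control, and their mean of 4.57 ± 0.109 UMIs (SD, n = 2) gave a ratio of 0.619. Ssr4, the delta subunit gene, had 9.17 and 9.93 UMIs in knockout and 12.4 in control alpha cells, a ratio of 0.769. Sec61b had 11.8 and 10.8 UMIs in knockout and 14.7 in control alpha cells, a ratio of 0.767. The mean over the knockout columns was 9.55 ± 0.536 UMIs for Ssr4 and 11.3 ± 0.658 UMIs for Sec61b (SD, n = 2). For these translocation genes the knockout columns did not reach the control value.

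Of the signal peptidase genes, Spcs1 had 3.11 and 3.12 UMIs per knockout alpha cell, against 4.68 per control alpha cell, a ratio of 0.666. Spcs2 had 2.31 and 2.11 UMIs in knockout and 3.52 in control alpha cells, a ratio of 0.628. The coat gene Cope had 2.76 and 2.98 UMIs in knockout and 4.40 in control alpha cells, a ratio of 0.652. Knockout means were 3.11 ± 0.00946 UMIs for Spcs1, 2.21 ± 0.141 for Spcs2 and 2.87 ± 0.154 for Cope (SD, n = 2). With each knockout column on its own, the 95% counting interval of the ratio stayed under 1 for all 6 members. The share of all listed alpha-cell genes that meet this rule was not computed. These intervals leave out the spread between mice.

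An edgeR quasi-likelihood fit over mice, in which the lone control is taken to vary as the knockout mice do, called 0 of the 6 members after Benjamini-Hochberg adjustment over the 186 genes. It called 4 lower genes (2.15%) and 0 higher (0%) in the table, and 47 lower (25.3%) and 5 higher at an unadjusted p under 0.05. The lowest adjusted p among the members was 0.0729 for Ssr2, at a log2 ratio of -0.69 and lower in 2 of 2 knockout mice, and the highest was 0.196 for Ssr4 and Sec61b. With the listed total as offset, edgeR gave Ssr2 an adjusted p of 0.118 and called 6 lower (3.23%) and 3 higher genes (1.61%) in the table. These genes had been chosen by the authors on the same cells, so such p-values are too small.

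In delta cells, 3 members were listed, and each was lower in both knockout columns, where 17.7% of the 231 listed genes were. Of the listed genes 18.6% had a mean under control and 81.4% one over it. By the fold of at least 1.5, 2 members were lower and 0 higher, where 16% and 41.1% of listed genes were. With that fold in each knockout column 1 member, Spcs2, was lower, where 11.3% of listed genes were. At a fold of at least 2 there were 0, where 6.49% were, and after centring 3, where 18.2% were. Ssr2 had 6.51 and 5.08 UMIs per knockout delta cell, against 9.41 per control delta cell, a ratio of 0.616. Spcs2 had 5.22 and 4.63 UMIs in knockout and 7.84 in control delta cells, a ratio of 0.628. For both genes the knockout columns lay under control, with means of 5.79 ± 1.01 UMIs for Ssr2 and 4.92 ± 0.417 UMIs for Spcs2 (SD, n = 2). Srp9, which pairs with Srp14 in SRP, had 5.17 and 3.44 UMIs in knockout and 5.52 in control delta cells, a ratio of 0.779 for the knockout mean of 4.30 ± 1.22 UMIs (SD, n = 2). The counting interval of the first knockout column alone spanned 1 for Srp9 [0.836 to 1.05], and its knockout columns differed more from each other than the first did from control.

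**Figure D5:**
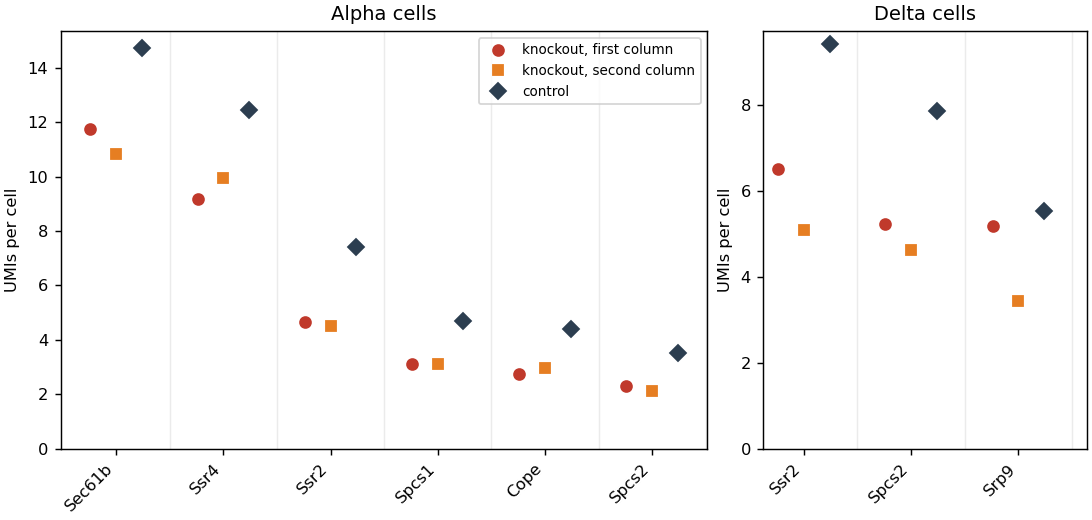
UMIs per cell are plotted for the 6 members listed in alpha cells and the 3 listed in delta cells, with 1 symbol for each knockout column and 1 for the control. The control symbol is the highest for every gene, and for Srp9 the first knockout column comes close to it, at 5.17 against 5.52 UMIs per cell.

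In delta cells edgeR's test with cell number as offset gave adjusted p-values of 0.0124 for Ssr2, 0.0258 for Spcs2 and 0.290 for Srp9, each lower in 2 of 2 knockout mice, in a table where it called 22 lower genes (9.52%) and 28 higher ones (12.1%), while 32 lower ones (13.9%) had an unadjusted p under 0.05. With the listed total as offset, the adjusted p-values were 0.265 for Ssr2 and 0.349 for Spcs2, and 8 lower (3.46%) and 82 higher genes (35.5%) were called. The listed delta-cell genes too had been chosen by the authors on the same cells, so such p-values are too small. Iapp alone held 1825 of the 3674 listed UMIs per control delta cell, so the listed total depends strongly on this gene. A delta-cell total without Iapp was not tried. The alpha-cell marker Gcg differed in these columns too, at 159 and 63.5 UMIs per knockout delta cell against 10.0 per control delta cell. Iapp, from the beta-cell marker list, was at 797 and 698 against 1825. Control beta cells had 1781 UMIs of Iapp per cell, so Iapp does not set beta cells apart from delta cells here. Rbp4, the 1 listed delta-cell marker, had 84.2 and 69.1 UMIs per knockout delta cell against 137 per control delta cell. The part of these 3 genes in the result was not tested.

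Ssr2 and Spcs2 were the members listed in all 3 cell types, whose comparisons share the control mouse and the knockout mice. The ratio of Ssr2 was 0.591 in beta cells, 0.619 in alpha cells and 0.616 in delta cells. That of Spcs2 was 0.646 in beta cells and 0.628 in both other cell types. These ratios are without scaling. After centring within each table, the log2 ratio of Ssr2 was -1.30 (beta cells), -0.40 (alpha cells) and -1.12 (delta cells). For Spcs2 the centred values were -1.17 (beta cells), -0.38 (alpha cells) and -1.09 (delta cells). How close the cell types lie thus depends on the scaling, and the same holds for the shared genes below. Spcs1, Ssr4, Sec61b and Cope were listed in beta and alpha cells. Ratios for Sec61b were 0.604 in beta and 0.767 in alpha cells, for Ssr4 0.598 and 0.769, for Spcs1 0.700 and 0.666, and for Cope 0.526 and 0.652. No test of a difference between cell types was made. Of the neighbouring genes, the oligosaccharyltransferase gene Dad1 was also listed in all 3, with ratios of 0.585 (beta cells), 0.663 (alpha cells) and 0.647 (delta cells). Dad1 had 6.69 and 6.77 UMIs per knockout alpha cell against 10.1 in control, and 11.7 and 9.58 per knockout delta cell against 16.4 in control. Ostc was lower in beta cells, at 0.639, and in alpha cells, at 0.710. Tram1, which encodes a translocating-chain membrane protein, was listed in delta cells, with 2.38 and 1.67 UMIs in knockout and 3.33 in control cells.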

How the data were processed

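Per the labels, single islet cells of 2 IRE1αβ-/- mice and 1 IRE1αfl/fl mouse were profiled with 10X Genomics libraries. The submitters' processing notes name Cell Ranger 3.0.0 and mm10. For cell filters, doublets, cell-type assignment and the authors' test, no account was found in the labels or headers. The authors deposited, per cell type, a signal per gene, which is the mean UMIs per cell: each value times 1 whole number per column gave whole UMIs within 0.001 for 100% of values, and 99.99% in control beta cells. They also deposited p-values and q-values. The largest adjusted p was 0.00998 for beta, 0.0101 for alpha and 0.0103 for delta cells, so the tables hold selected genes only. Knockout columns carry numbers that no label carries, and are called first and second. The alpha-cell header is shifted by 1 column.

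Ratios had no pseudocount, and for alpha and delta cells both knockout columns counted equally. A group at 0 UMIs was set to 3 UMIs over its cells. edgeR 4.0.16 (R 4.3.3) was run on recovered UMI counts of all listed alpha- and delta-cell genes, offset by the log of the cell number or, as an alternative, of the listed total. It has 1 residual degree of freedom. All 34 members were found in GENCODE M21 (mm10). Values in full are given for all members in the alpha or delta tables and, in beta cells, for the 2 highest and 2 lowest members per step (all in steps of up to 6) and the most abundant; per neighbouring list the 2 highest and 2 lowest are named. Other genes were named after their values were seen. Members, steps and lists were chosen with earlier results of these data known. Alternatives were a fold of 2, other scalings, a filter on low values, a pseudocount, dropping members of no step and leaving out either knockout column.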

Additional observations from a re-analysis of the deposited data

Results flagged for a closer look

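Of the members and neighbouring genes, Arf5, a small GTPase gene of the COPI list, was on opposite sides of control in 2 cell types. Its ratio of knockout over control was 0.757 in alpha cells, with both knockout columns lower, and 1.02 in beta cells, where the interval spans 1. After centring on the median of the listed genes in each table, its log2 ratio was -0.11 in alpha cells and -0.52 in beta cells, so the opposite sides depend on the scaling. The difference was not tested.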

How the results depend on the processing

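No paired analysis was possible because the labels give no replicate numbers and the control group has 1 mouse. In beta cells the number of members lower by a fold of at least 1.5, 11, became 0 at a fold of 2 and 0 after scaling to the listed total. It was 13 with that total less Ins1, Ins2 and Iapp. The number higher, 1, became 12 after scaling to the listed total, 0 with the filter on low values and 0 without members of no named step. The beta-cell median log2 ratio of 0.11 became -0.43 after centring, 0.46 with the listed total, -0.16 with that total less Ins1, Ins2 and Iapp, and -0.11 with the filter. In alpha cells the number lower, 4, became 0 at a fold of 2, after centring, after scaling to the listed total and by edgeR with either offset, and 2 with the fold required in each knockout column, an alternative added after seeing the data. The alpha-cell median of -0.60 became -0.31 after centring, -0.43 after scaling and -0.57 with a pseudocount. Leaving out 1 knockout column gave 2 to 4 lower alpha-cell members at medians from -0.60 to -0.57, the 2 being without the first column. In delta cells the number lower, 2, became 0 at a fold of 2, after scaling and by edgeR with the listed total as offset, and 1 with the fold in each column, also added later. The delta-cell median of -0.67 became -1.09 after centring and -0.31 after scaling to a listed total that includes Iapp. Leaving out 1 knockout column gave 1 to 3 lower delta-cell members at medians from -0.76 to -0.53, the 1 being without the second column. The cause of these differences was not tested.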
